A study of Mus musculus with 24 samples.

Results

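The genes described here build the hair shaft: the hair keratins and the keratin-associated proteins (KAPs). They were followed on 24 arrays of mouse digits after amputation. Members were taken by a rule on gene names, which was set with earlier results of these data known. The rule took every probe set whose symbol field held a symbol that starts with Krtap, or Krt31, Krt32, Krt33a, Krt33b, Krt34, Krt35, Krt36, Krt39, Krt40 or Krt81 to Krt87. This gave 37 of the 16661 probe sets in the table, and all 37 were among the 15928 probe sets with at least 1 symbol that were tested. Of the members, 25 listed 1 gene and 12 had several entries. Among these 12, Krtap16-3/Krtap16-3 repeats the same symbol and was kept with the probe sets of several genes. A probe set with several genes is written with all of them (Krt33a/Krtap17-1), and its value is not given to any single gene. Of the 16 keratins searched for, 12 were named by a probe set, and Krt33b, Krt36, Krt40 and Krt85 were not.

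The digits came from wild-type C57BL/6 (B6) and MRL/MpJ (MRL) mice aged 3-4 months. Digits were amputated at day 0 and collected on days 0, 3, 7 and 14, and day 0 supplies the unamputated digits that the design names. The strains and days made 8 groups, each with 3 biological replicates on 1 array apiece. By the labels the tissue was the middle digits of the hindlimb at the second phalanx, and a note on the arrays names the anterior part of that digit. The sources used here do not state how many mice were pooled for an array.

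The hair shaft is a bundle of keratin filaments set in a matrix of KAPs. Each filament pairs an acidic type I keratin with a basic type II keratin. KAPs are small proteins rich in cysteine (the high-sulfur and ultra-high-sulfur families) or in glycine and tyrosine (the high glycine-tyrosine families), and the cysteines link matrix and filaments through disulfide bonds. Cells that leave the matrix of a growing follicle switch these genes on as they form cuticle and cortex, and the resting follicle does not make them. The nail is built from an overlapping set. By family, the members were 5 type I keratin probe sets, 5 of type II, 1 that lists a type I keratin with an ultra-high-sulfur KAP, 9 high-sulfur KAPs, 5 ultra-high-sulfur KAPs and 12 high glycine-tyrosine KAPs. Several of these 12 list the same genes, Krtap6-5 and Krtap6-1, so counts within that family are not of independent genes. The members lie in gene clusters: 13 probe sets on chromosome 11, 17 on chromosome 16, 5 on chromosome 15 and 2 on chromosome 7.

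Promoters are shown for 1 gene of each family, with Krt84 as a member that moved less in the results below. RefSeq windows (assembly GRCm38.p6), which run from 250 bases before to 50 bases after the start, were found for 31 of the 37 member symbols, without Krt33a, Krt35, Krt81, Krt83, Krt86 and Krt87. Each window of 300 bases is written from 5′ to 3′ on the gene's strand. Capitals mark TATAAA, the core of the TATA box, and CTTTGAA, a match to the site of LEF1 and TCF factors, on either strand.
Krt31, type I keratin, chr11:100050502-100050801, minus strand: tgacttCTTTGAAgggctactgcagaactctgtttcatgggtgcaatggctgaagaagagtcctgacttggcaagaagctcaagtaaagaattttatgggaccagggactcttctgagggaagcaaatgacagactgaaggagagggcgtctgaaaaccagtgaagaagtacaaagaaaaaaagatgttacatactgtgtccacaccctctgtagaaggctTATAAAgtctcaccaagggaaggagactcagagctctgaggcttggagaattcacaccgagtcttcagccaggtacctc
Krt84, type II keratin, chr15:101532771-101533070, minus strand: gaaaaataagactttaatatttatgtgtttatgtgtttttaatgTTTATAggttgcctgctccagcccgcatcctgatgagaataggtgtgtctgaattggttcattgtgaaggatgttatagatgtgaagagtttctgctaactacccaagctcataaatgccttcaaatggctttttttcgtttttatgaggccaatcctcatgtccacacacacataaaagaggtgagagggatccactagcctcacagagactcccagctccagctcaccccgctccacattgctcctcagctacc
Krtap1-5, high-sulfur KAP, chr11:99580967-99581266, minus strand: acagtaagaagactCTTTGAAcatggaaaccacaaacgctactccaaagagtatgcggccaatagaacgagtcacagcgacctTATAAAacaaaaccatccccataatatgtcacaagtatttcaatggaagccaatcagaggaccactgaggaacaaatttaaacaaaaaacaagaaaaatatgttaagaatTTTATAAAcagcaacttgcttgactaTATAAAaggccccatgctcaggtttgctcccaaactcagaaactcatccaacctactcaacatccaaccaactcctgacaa
Krtap4-7, ultra-high-sulfur KAP, chr11:99644040-99644339, minus strand: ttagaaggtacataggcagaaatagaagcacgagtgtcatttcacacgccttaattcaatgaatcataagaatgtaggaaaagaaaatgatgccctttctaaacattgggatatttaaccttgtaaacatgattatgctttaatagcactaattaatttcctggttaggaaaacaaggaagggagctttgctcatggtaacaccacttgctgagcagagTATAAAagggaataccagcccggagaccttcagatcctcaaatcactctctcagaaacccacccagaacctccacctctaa
Krtap19-5, high glycine-tyrosine KAP, chr16:88896400-88896699, minus strand: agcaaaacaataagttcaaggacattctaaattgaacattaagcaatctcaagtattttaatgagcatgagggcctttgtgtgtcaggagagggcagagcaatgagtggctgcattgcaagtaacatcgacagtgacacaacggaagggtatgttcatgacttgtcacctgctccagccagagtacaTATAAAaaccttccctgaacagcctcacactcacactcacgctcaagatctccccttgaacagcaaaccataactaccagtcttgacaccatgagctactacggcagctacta
TATAAA stood 29 bases before the start in Krt31, 31 bases before it in Krtap4-7 and Krtap1-5, and 63 bases before it in Krtap19-5. In Krt84 its only match was on the other strand. The window of Krt82, a type II keratin that changed like most members, held neither TATAAA nor CTTTGAA. Whether these matches go with the changes was not tested.

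On the gene's own strand, TATAAA began 40 to 20 bases before the start in 15 of the 31 member windows (48.4%), against 1.99% of all 32851 windows. On either strand and at any place it was in 23 member windows (74.2%), against 13.6% of all. CTTTGAA was in 11 (35.5%), against 5.14% of all. ACGC, a short match to the site of FOXN1, a regulator of hair keratins, was in 10 (32.3%), against 55.3% of all. In 0 member windows did 2 different motifs of these overlap. Counts by family rest on few windows, and a difference between families was not tested. CTTTGAA was in 4 of 4 type I keratin windows, 5 of 9 high-sulfur, 2 of 10 high glycine-tyrosine, 0 of 6 ultra-high-sulfur and 0 of 2 type II windows. TATAAA at 40 to 20 bases was in 5 of 6 ultra-high-sulfur windows, 3 of 4 type I, 4 of 9 high-sulfur, 3 of 10 high glycine-tyrosine and 0 of 2 type II windows. These are matches of letters, and neighbouring genes of a family share sequence, so the windows are not independent.

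Before the results, 6 of the 24 arrays need naming. Summed linear values of 8 leukocyte genes (Ptprc, Itgam, Cd68, Adgre1, Il1b, S100a8, S100a9 and Cxcl2) ran from 1719 to 2205 in B6 day 0 and from 21522 to 23592 in B6 day 3. In the arrays labelled MRL day 0 they ran from 11397 to 12181, and in those labelled MRL day 3 from 1572 to 3705. The members stood the other way round: their median log2 value per array was 9.79 to 10.16 in B6 day 0, 6.39 to 6.65 in B6 day 3, 7.07 to 7.69 in the arrays labelled MRL day 0 and 9.15 to 9.87 in those labelled MRL day 3. In these measures both groups thus go against their labels when set beside B6. Results that rest on them are given last and as labelled, and no such result can be had without them.

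Values are log2 of the deposited RMA intensities, where 1 unit is a doubling. Differences are given with the standard error (SE) of 1 limma fit over all 24 arrays. A change was called at a Benjamini-Hochberg adjusted p below 0.05 over the 15928 probe sets. The table holds no detection flags, and a fold against a low level includes background of unknown size. With 3 arrays a group the precision is limited, and an exact permutation test of a single member cannot give a p below 0.1. In whole digits, fewer hair-forming cells and less RNA per cell cannot be told apart.

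By day 3 after amputation in B6, nearly every hair shaft gene had fallen, 28 of the 37 probe sets by more than 10-fold. Of the 37 members 35 were called lower and 0 higher, while 45.4% of all probe sets were called in either direction and 28% were called lower. The median member difference was -3.66, against -0.08 over all probe sets. Arrays of day 3 lay wholly below those of day 0 in 36 members, against 30.9% of all probe sets. By day 7, 36 members were lower than on day 0, where 42.9% of all probe sets were called, with a median difference of -4.24. The 35 members lower on day 3 were all lower on day 7 as well.

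All 5 type I keratins fell, by 2.82 to 4.22. Krt31, a keratin of the cortex in human hair, read 10.79, 10.38 and 10.63 in the B6 day 0 arrays and 6.26, 6.37 and 6.51 on day 3. All 3 day 3 arrays lay far below day 0. The difference was -4.22 ± 0.19 (SE, n = 3 a group, limma adjusted p = 1.81e-12), a fold of 18.6. Krt35, one of the first keratins that a forming human hair makes, read 10.93, 10.68 and 10.91 on day 0 and 6.66, 6.94 and 6.64 on day 3. It fell by 4.09 ± 0.17, and Krt32, a cuticle keratin in human hair, fell by 4.10 ± 0.17 (limma adjusted p = 4.06e-13 and 3.46e-13). Krt39 fell least of the 5, by 2.82 ± 0.19, from 9.17, 8.86 and 8.95 to 6.30, 6.18 and 6.04.

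The type II keratins were split. Krt82, the type II partner in the cuticle of human hair, read 10.38, 10.26 and 10.16 on day 0 and 6.37, 6.95 and 6.49 on day 3, and fell by 3.66 ± 0.16 (limma adjusted p = 6.55e-13). The probe set Krt87/Krt81/Krt83, of type II cortex keratins, fell by 3.55 ± 0.18. Krt84, which in human is a keratin of the tongue papillae, moved less, and its day 3 arrays were uneven. It read 8.29, 7.93 and 8.38 on day 0 and 6.67, 6.44 and 7.93 on day 3, with the highest day 3 array at the level of the lowest day 0 array. Its difference of -1.19 ± 0.46 (limma adjusted p = 0.0387) was not called with cyclic loess (adjusted p = 0.0558), with median centring (0.0683), or without B6 day 0 replicate 1 (0.0879), B6 day 0 replicate 3 (0.103), B6 day 3 replicate 1 (0.111) or B6 day 3 replicate 2 (0.164). Krt7/Krt86 fell by 0.31 ± 0.09 and was not called with cyclic loess (-0.09), with median centring (-0.15), or with only the compared arrays (adjusted p = 0.0646). Krt90/Krt80/Krt83 differed by -0.36 ± 0.24 and was not called. Both of these list a keratin from outside the hair.

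Among the KAPs, 25 of 26 probe sets were called lower on day 3. The ultra-high-sulfur family had the deepest median, -4.56. Krtap4-7 read 10.61, 9.87 and 10.56 on day 0 and 5.44, 5.54 and 5.29 on day 3, with no overlap. It fell by 4.92 ± 0.32 (limma adjusted p = 1.42e-10), the most of all members, and its fold was 30.3. Krtap5-4, of a family made in the cuticle of human hair, fell by 4.70 ± 0.32, from 12.35, 11.99 and 12.36 to 6.93, 7.98 and 7.68. Krtap4-2 fell by 4.56 ± 0.39, and Krtap4-13, the least changed of the family, fell by 3.66 ± 0.24. The 12 high glycine-tyrosine probe sets, all called, fell by 2.85 to 4.15. Krtap19-5, which belongs to this family, read 10.16, 9.33 and 10.49 on day 0 and 6.69, 6.40 and 5.86 on day 3, with the groups clearly apart.

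The high-sulfur family held the smallest change of the KAPs and the exception. Krtap13-1 read 11.58, 10.71 and 11.42 on day 0 and 7.12, 7.69 and 7.62 on day 3, and fell by 3.76 ± 0.30 (limma adjusted p = 2.95e-09). Krtap31-1, at 7.52, 6.46 and 7.07 and then 4.39, 4.79 and 5.16, fell by 2.24 ± 0.33. Krtap13 read 3.88, 3.22 and 3.16 on day 0 and 3.11, 2.88 and 4.78 on day 3. Its groups overlapped at the low end of the scale, and its difference of 0.17 ± 0.56 was not called (limma adjusted p = 0.824). That difference turned negative without B6 day 3 replicate 3 (-0.42) and with array weights (-0.24).

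**Figure D1:**
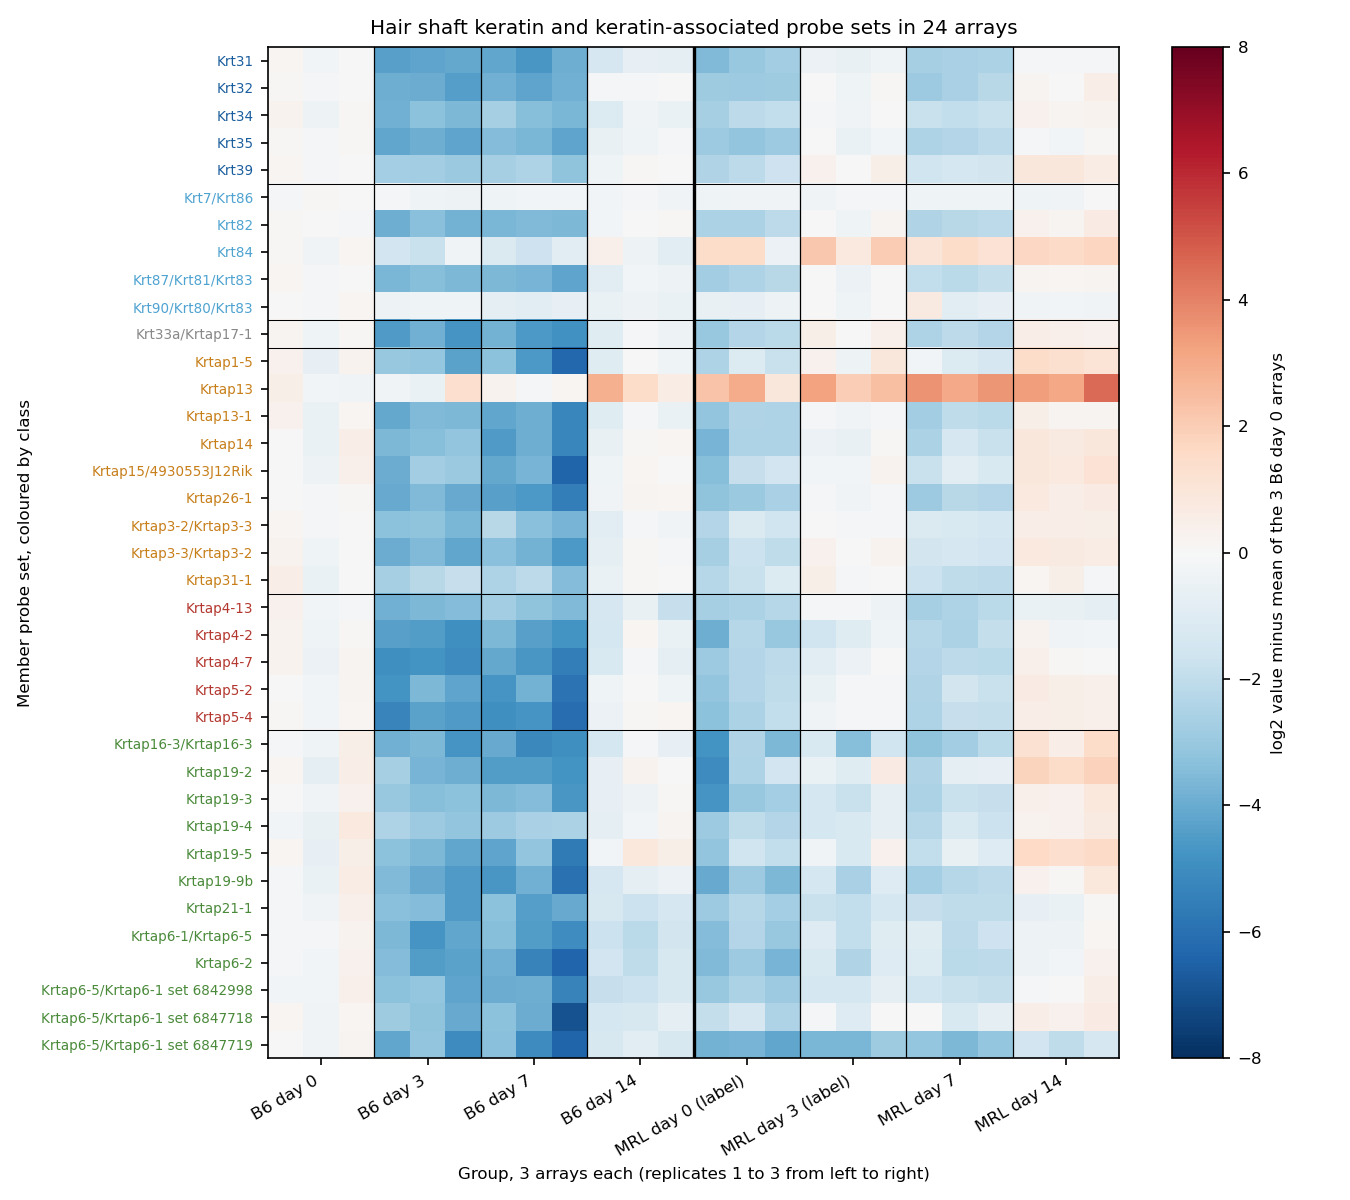
The heatmap gives each member probe set (rows, grouped and coloured by family) in each of the 24 arrays (columns) as log2 value minus the mean of the 3 B6 day 0 arrays. Blue fills the B6 day 3 and day 7 columns in nearly every row, and pale colours return on day 14. The rows Krt84 and Krtap13 are red in most MRL arrays.

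Other genes of the hair follicle fell beside the members on day 3 in B6. All 8 regulators of the hair shaft (Foxn1, Hoxc13, Lef1, Msx2, Dlx3, Gata3, Ovol1 and Trps1) were called lower, with a median of -1.44. All 8 measured genes of hair-forming cells (Dsg4, S100a3, Padi3, Gprc5d, Vsig8, Psors1c2, Prr9 and Tgm3) were called lower, with a median of -2.91, and so were all 6 measured keratins of the inner root sheath, with a median of -3.30. Of 8 epidermal genes (Krt5, Krt14, Krt15, Krt1, Krt10, Krt2, Lor and Ivl), 3 were lower and 0 higher, and their summed linear values went from 61730 to 63456 on day 0 to 49140 to 55276 on day 3. All 8 leukocyte genes were called higher, and none of them read below a linear value of 34.6 on day 0. The 5 measured melanocyte genes gave 0 calls. Of the 2 measured keratins of the wound epidermis, Krt16 was called higher (3.58) and Krt17 lower (-0.43). The part of these cell mixtures in the fall of the members was not tested.

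Between day 3 and day 7 in B6 the keratins held their low level, while some KAPs read lower still. Of the members 3 were called lower and 0 higher, where 21.2% of all probe sets were called in either direction and 4.17% lower. The 3 were Krtap26-1, Krtap14 and Krtap15/4930553J12Rik, all of the high-sulfur family. Krtap26-1 read 6.83, 7.32 and 6.82 on day 3 and 6.52, 6.30 and 5.37 on day 7, without overlap. It fell by 0.92 ± 0.24 (limma adjusted p = 0.00726). Krtap14 fell by 1.16 ± 0.36 and Krtap15/4930553J12Rik by 1.49 ± 0.52 (adjusted p = 0.0248 and 0.0444), the last with overlapping arrays. With only the compared arrays, Krtap26-1 and Krtap15/4930553J12Rik were not called (adjusted p = 0.0689 and 0.172), nor was the latter with an offset of 16 (0.0531). The 11 keratin probe sets had a median difference of 0.04 with 0 called, and the 26 KAP probe sets a median of -0.65, against 0.08 over all probe sets. The difference between these families was not tested. This step leans on single arrays. B6 day 7 replicate 3 was the lowest of its group in 27 of 37 members, and without it 1 member was called, Krt35, which was higher (0.51, adjusted p = 0.0418). Without B6 day 3 replicate 2, 0 members were called. Without B6 day 7 replicate 1 there were 7 calls and without B6 day 7 replicate 2 there were 6.

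By day 14 most hair shaft genes had risen again in B6, and they held the largest rises since day 7. Of the members 33 were called higher than on day 7 and 0 lower, where 1.86% of all probe sets were called in either direction and 1.46% higher. The median member difference was 3.56, against 0.01 over all probe sets. These were 89.2% of the members and 14.2% of the 232 upward calls. Ranked by log2 difference, the 10 largest rises over all probe sets were all members, as were 17 of the largest 20 and 26 of the largest 40. All 33 had been called lower on day 3. Leaving out any 1 array of the 2 groups left 33 calls.

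The largest rise was that of Krtap5-4, which read 7.31, 7.55 and 6.15 on day 7 and 11.74, 12.34 and 12.41 on day 14. The groups lay far apart, by 5.16 ± 0.32 (SE, n = 3 a group, limma adjusted p = 4.79e-10), a fold of 35.8. Krtap26-1, a high-sulfur KAP, rose by 4.84 ± 0.24, from 6.52, 6.30 and 5.37 to 10.57, 11.09 and 11.05. Krtap19-5 rose by 4.72 ± 0.52, from 5.77, 6.83 and 4.36 to 9.79, 10.84 and 10.48. Krtap5-2, of the same family as Krtap5-4, rose by 4.56 ± 0.38. Type I keratins rose by 2.62 to 3.87, with Krt31 going from 6.43, 5.94 and 6.72 to 9.25, 9.94 and 9.83. Krt82 rose by 3.54 ± 0.16, from 6.61, 6.77 and 6.70 to 10.07, 10.26 and 10.36.

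The smallest called rise was that of Krtap4-13, from 3.30, 2.88 and 2.57 to 4.76, 5.54 and 4.28, a difference of 1.94 ± 0.24. Its day 7 arrays lay at the low end of the scale. Krtap19-4 rose by 2.43 ± 0.32. The 4 members with no call were Krt84, Krtap13, Krt7/Krt86 and Krt90/Krt80/Krt83. Krt84 read 7.06, 6.55 and 7.33 on day 7 and 8.61, 7.79 and 7.35 on day 14, with groups that only just parted, and differed by 0.93 ± 0.46 (limma adjusted p = 0.474). Krtap13 went from 3.67, 3.25 and 3.55 to 6.27, 4.90 and 4.00, all above day 7 but widely spread, and its difference of 1.57 ± 0.56 was not called (limma adjusted p = 0.224).

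**Figure D2:**
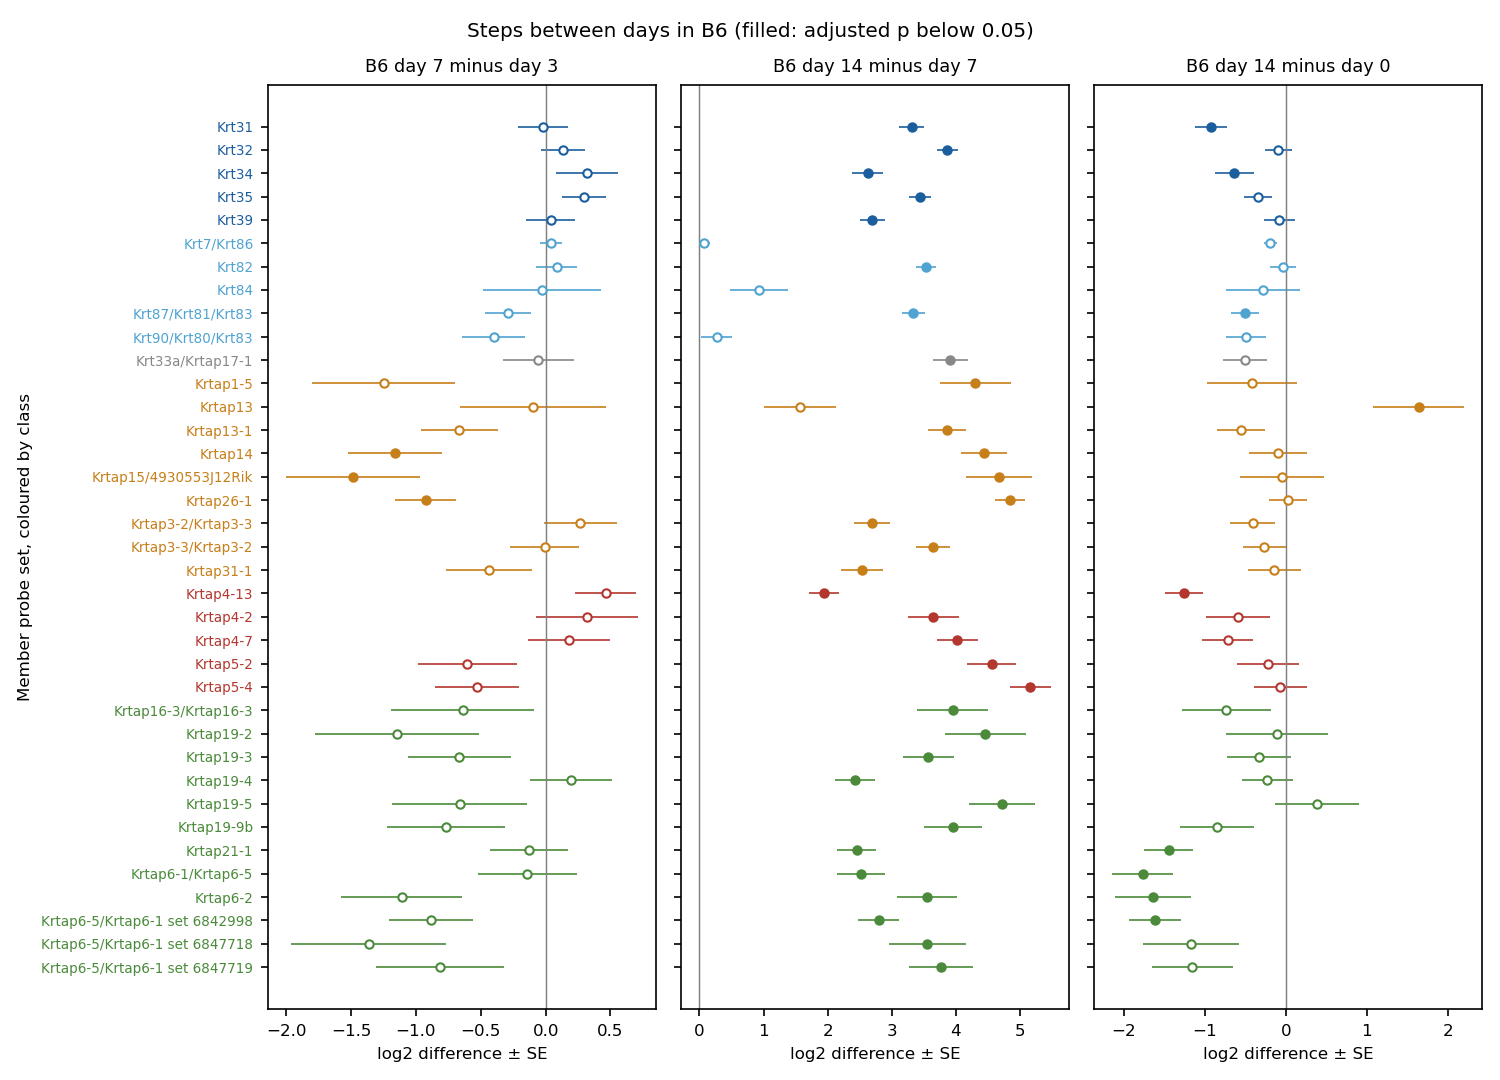
Each row is a member probe set, coloured by family, and each point its log2 difference with the SE of limma for day 7 minus day 3, day 14 minus day 7 and day 14 minus day 0 in B6. Filled points passed an adjusted p of 0.05. Filled points fill the middle panel between 1.94 and 5.16, while most points of the right panel lie below 0.

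The rest of the follicle rose with the shaft between day 7 and day 14 in B6. Of the 8 regulators 6 were called higher and 0 lower, led by Msx2 (1.55 ± 0.19), Lef1 (1.01 ± 0.13) and Dlx3 (1.01 ± 0.15), transcription factors of the hair matrix. Ovol1 and Trps1 were not called. Of the 8 genes of hair-forming cells 7 were called higher and Tgm3 was not, with a median of 2.96. Dsg4, a desmosomal cadherin of the hair shaft, rose by 3.84 ± 0.15, and S100a3, a calcium-binding protein of the hair cuticle, by 3.72 ± 0.19 (limma adjusted p = 6.9e-13 and 2.36e-11). All 6 inner root sheath keratins were higher, with a median of 3.25. The 8 epidermal genes gave 0 calls with a median of 0.00, and their sum was 53190 to 60766 on day 7 and 51441 to 61839 on day 14. The 8 leukocyte genes, the 5 melanocyte genes and the 4 proliferation genes gave 0 calls each. Of the 5 bone genes 2 were called higher, Sp7 and Dmp1.

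Compared with the unamputated digit, 28 of the 37 members gave no call in B6 on day 14, but most still read lower. The difference was negative in 34 members and positive in 3, while it was negative in 8177 of the 15928 probe sets. The high glycine-tyrosine family had the lowest median of the families. Of the members 8 were called lower and 1 higher, where 37% of all probe sets were called in either direction, 14.2% lower and 22.8% higher. The lower calls were 21.6% of the members, above the share over all probe sets. The median member difference was -0.41. Of the 12 high glycine-tyrosine probe sets 4 were called lower with a median of -1.003, and of the 25 others 4 were lower and 1 was higher with a median of -0.29. The difference between the families was not tested, and several of the 12 list the same genes, Krtap6-5 and Krtap6-1. The family was uneven: Krtap19-2 had means of 8.67 on day 0 and 8.56 on day 14, and Krtap19-5 of 9.99 and 10.37. Krtap6-2 read 10.42, 10.40 and 10.95 on day 0 and 9.03, 8.54 and 9.28 on day 14, without overlap, and was lower by 1.64 ± 0.47 (limma adjusted p = 0.00918). Krtap21-1 differed by -1.45 ± 0.30 and Krtap6-1/Krtap6-5 by -1.77 ± 0.38. Outside that family, Krtap4-13 (-1.25 ± 0.24), Krt31 (-0.93 ± 0.19), Krt34 (-0.64 ± 0.24) and Krt87/Krt81/Krt83 (-0.51 ± 0.18) were lower. Krtap13 was higher, by 1.64 ± 0.56 (limma adjusted p = 0.0264). Without B6 day 14 replicate 1 the calls for Krt34 (-0.40), Krt87/Krt81/Krt83 (-0.33) and Krtap13 (1.04) were lost. Krt34 was also not called without B6 day 0 replicate 1, B6 day 0 replicate 3 or B6 day 14 replicate 3, Krt87/Krt81/Krt83 without B6 day 0 replicate 1 or 3, and Krtap13 without B6 day 0 replicate 2 or 3 (lowest and highest of these differences 1.51 and 1.54). With an offset of 16 the difference of Krtap13 was 0.94 and not called (adjusted p = 0.0671), and Krt34 was not called with only the compared arrays (adjusted p = 0.0696).

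In MRL the same genes rose between day 7 and day 14. Of the members 30 were called higher and 0 lower, where 3.54% of all probe sets were called in either direction, 1.75% higher and 1.79% lower. The median was 2.21, against 0.01 over all. Members held 8 of the 10 largest rises and 25 of the largest 40. Krt31 read 7.95, 8.01 and 8.06 on day 7 and 10.48, 10.44 and 10.53 on day 14, 2 tight groups, with a difference of 2.48 ± 0.19 (SE, n = 3 a group, limma adjusted p = 2.9e-08). Krtap26-1 rose by 3.17 ± 0.24, from 7.96, 8.66 and 8.53 to 11.66, 11.42 and 11.56. Krt32 rose by 2.83 ± 0.17 and Krt82 by 2.65 ± 0.16. Krtap19-2, at 6.28, 7.87 and 7.998 and then 10.47, 10.16 and 10.50, rose by 2.99 ± 0.63, a call lost without MRL day 7 replicate 1 (adjusted p = 0.0520). The 7 members with no call were the 4 that gave none in B6 and 3 of the probe sets that list Krtap6-5 and Krtap6-1. Beside this rise, all 8 leukocyte genes had negative differences (median -0.92), of which Ptprc and Il1b were called lower, and their sums were 4622 to 8645 on day 7 and 3238 to 3600 on day 14. Of the 4 proliferation genes Cdk1 was called lower, and of the 2 wound epidermis genes Krt17 was called higher. The 8 epidermal and 5 melanocyte genes gave 0 calls, and the part of these genes was not tested.

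The rise was read as smaller in MRL for 36 of 37 members, but the difference between the strains passed the test for 3, where 0.264% of all probe sets were called in either direction. The median member difference of MRL rise minus B6 rise was -1.17, against 0.00 over all. Krtap5-4 rose by 2.53 ± 0.32 in MRL, from 9.77, 10.42 and 10.36 to 12.79, 12.70 and 12.66, which is 2.63 ± 0.46 less than its rise in B6 (limma adjusted p = 0.00935). On day 7 it had stood higher in MRL by 3.18 ± 0.32, and on day 14 the strains differed by 0.55 ± 0.32, which was not called. The rise of Krtap26-1 was smaller by 1.67 ± 0.33 (adjusted p = 0.0277), a call lost with quantile normalization (adjusted p = 0.0524) and median centring (0.0588). That of Krt35, which read 8.39, 8.52 and 8.75 and then 10.73, 10.61 and 10.94 in MRL, was smaller by 1.24 ± 0.24 (adjusted p = 0.0254). In this fit 22 members had an unadjusted p below 0.05, as did 1088 of all 15928 probe sets (6.83%). With limma on these 12 arrays alone, 0 members passed. Without B6 day 7 replicate 1 there were 6 calls, and there was 1 call without B6 day 7 replicate 3, MRL day 7 replicate 2 or 3, B6 day 14 replicate 2 or 3, or MRL day 14 replicate 1 or 2.

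**Figure D3:**
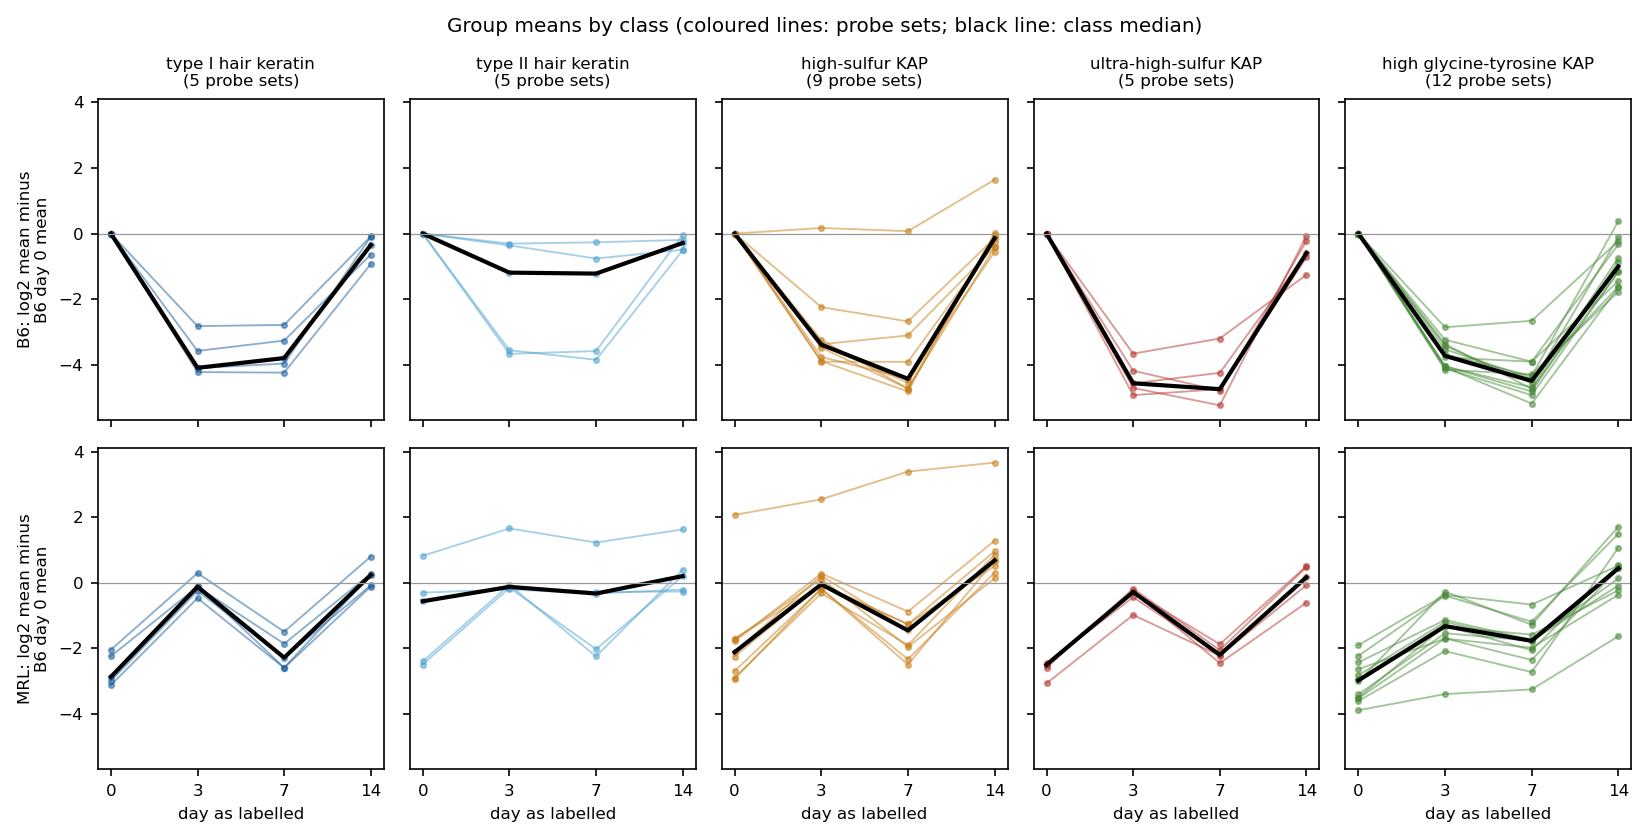
Group means of each member probe set are drawn against the labelled day, as log2 mean minus the B6 day 0 mean, by family (columns) and strain (rows), with the family median in black. The B6 medians other than that of type II drop below -3 on days 3 and 7 and rise again by day 14, that of the high glycine-tyrosine family to -1.003. The MRL lines are drawn as labelled, with day 0 low and day 3 high.

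On day 7 the hair shaft genes read higher in the MRL digit than in the B6 digit. Of the members 33 were called higher in MRL and 0 lower, where 9.46% of all probe sets were called in either direction and 3.18% were higher. The median member difference was 2.09, against -0.07 over all. Arrays did not overlap in 33 members, 1 of them not a call and 1 call overlapping, and over all probe sets the MRL arrays lay wholly above in 10%. The medians were 2.46 for the high-sulfur, 2.54 for the ultra-high-sulfur and 2.55 for the high glycine-tyrosine KAPs, and 1.40 for the 11 keratin probe sets. The difference between KAPs and keratins was not tested, and the B6 day 7 arrays were the most uneven group for the members, with a median SD of 0.61, against 0.13 over all probe sets.

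Krt31 read 6.43, 5.94 and 6.72 in B6 and 7.95, 8.01 and 8.06 in MRL on day 7. The MRL arrays all lay above, by 1.64 ± 0.19 (SE, n = 3 a group, limma adjusted p = 9.57e-06). The smallest difference among the type I keratins was that of Krt39, 1.29 ± 0.19. Krt82 differed by 1.33 ± 0.16. Krtap1-5, a high-sulfur KAP, read 6.56, 5.22 and 3.52 in B6 and 9.58, 8.74 and 8.497 in MRL. The B6 values were widely spread but all lower, with a difference of 3.84 ± 0.55 (limma adjusted p = 9.48e-05) and a fold of 14.4. Krtap6-2 read 6.73, 5.25 and 4.23 in B6 and 9.51, 8.44 and 8.51 in MRL, higher by 3.41 ± 0.47. Krtap19-2, of the same class, read 4.19, 4.21 and 3.91 in B6, all below MRL, and was higher in MRL by 3.28 ± 0.63. Krtap5-4 was higher in MRL by 3.18 ± 0.32.

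Among probe sets with 1 gene, the smallest differences on day 7 were those of Krtap31-1, Krtap4-13 and Krtap19-4. Of the sets with several, Krt7/Krt86 (-0.06 ± 0.09) and Krt90/Krt80/Krt83 (0.48 ± 0.24) differed less still and were not called. Krtap31-1 read 4.57, 4.91 and 3.55 in B6 and 5.31, 4.98 and 4.90 in MRL, with overlapping arrays, and its difference of 0.72 ± 0.33 was not called (limma adjusted p = 0.196). Krtap4-13, at 3.30, 2.88 and 2.57 in B6 and 3.44, 3.63 and 3.93 in MRL, differed by 0.75 ± 0.24 (adjusted p = 0.0497). Its call was lost without B6 day 7 replicate 2 or 3 and without any 1 MRL day 7 array (differences of 0.57 to 0.86 and adjusted p of 0.0623 to 0.217), with an offset of 16 (0.28) and with only the compared arrays (adjusted p = 0.0616). Krtap19-4 differed by 0.92 ± 0.32 (adjusted p = 0.0757), and was called without MRL day 7 replicate 1 (1.19, adjusted p = 0.0412) and with array weights (1.25, adjusted p = 0.00275).

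Other follicle genes were also higher in MRL on day 7: 7 of 8 genes of hair-forming cells, 5 of 6 inner root sheath keratins and 3 of 8 regulators (Lef1, Msx2 and Gata3). Of the 8 epidermal genes 1 was lower and 0 higher, with sums of 52283 to 55818 in MRL and 53190 to 60766 in B6. Of the 8 leukocyte genes 5 were lower in MRL, with sums of 4622 to 8645 against 8033 to 12409. Both measured keratins of the wound epidermis were lower in MRL too, Krt16 (-2.49 ± 0.58) and Krt17 (-0.75 ± 0.15, limma adjusted p = 0.00823 and 0.00242), with sums of 2750 to 4965 against 7914 to 11641. These keratins had been split in B6 on day 3 against day 0, with Krt16 called higher and Krt17 lower. Whether these genes had a part in the difference of the members was not tested.

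By day 14 the strains stood closer. Of the members 10 were called higher in MRL and 0 lower, where 5.27% of all probe sets were called in either direction and 0.866% were higher and 4.4% lower. The members had a median of 0.89, against -0.06 over all. All 10 were among those higher on day 7. Krt39 read 8.66, 9.07 and 9.0003 in B6 and 9.88, 9.89 and 9.60 in MRL, without overlap, a difference of 0.88 ± 0.19 (limma adjusted p = 0.00656). Krt31 differed by 0.81 ± 0.19, Krt34 by 0.91 ± 0.24 and Krtap21-1 by 1.08 ± 0.30. None of the 5 ultra-high-sulfur KAPs was called (median 0.65). Krtap5-4, as an example, read 11.74, 12.34 and 12.41 in B6 and 12.79, 12.70 and 12.66 in MRL, a difference of 0.55 ± 0.32. The count fell to 5 without B6 day 14 replicate 1 and to 6 without B6 day 14 replicate 3 or any 1 MRL day 14 array. It was 16 with an offset of 16, 23 with array weights and 21 with only the compared arrays, and 6 over 1-symbol probe sets. Without B6 day 14 replicate 1, which was the lowest of its group in 29 of 37 members, the calls for Krt31 (0.60, adjusted p = 0.0984), Krt34 (0.68, adjusted p = 0.155) and Krtap21-1 (1.16, adjusted p = 0.0647) were lost. That for Krt34 was also lost without MRL day 14 replicate 1 or 2, and that for Krtap21-1 without B6 day 14 replicate 2 or 3 or MRL day 14 replicate 2 or 3. Of the 8 leukocyte genes 5 were lower in MRL on day 14, of the 8 regulators 0 were called, and of the 8 genes of hair-forming cells 4 were higher.

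**Figure D4:**
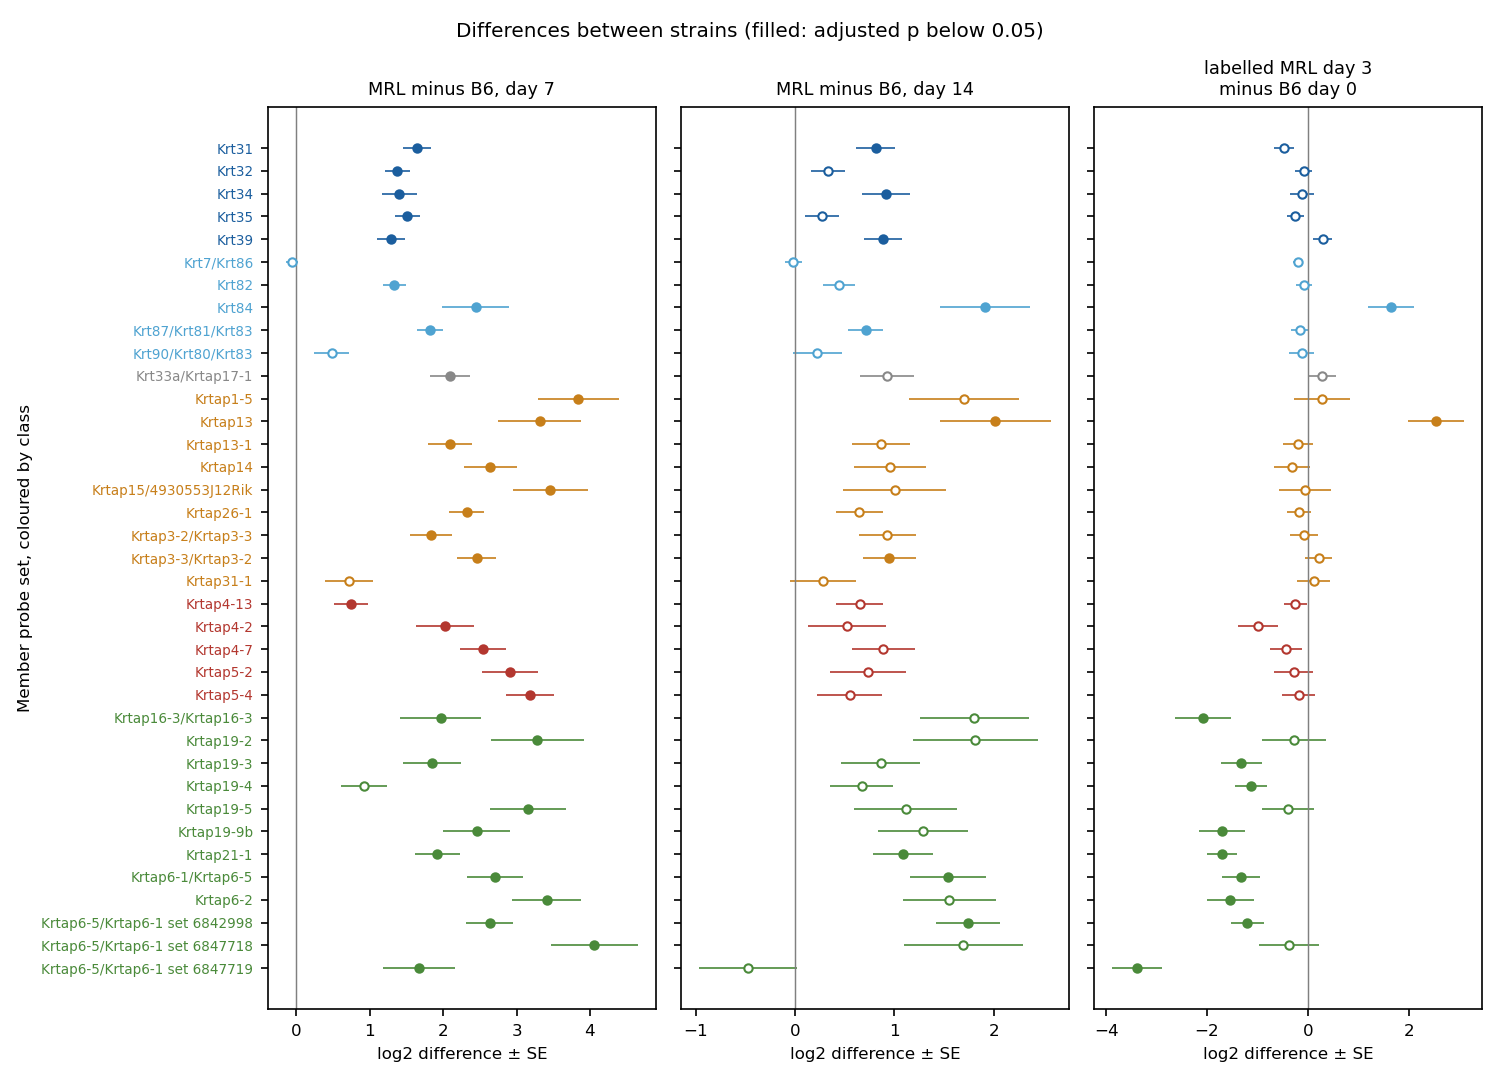
Log2 differences with the SE of limma are drawn for each member probe set for MRL minus B6 on day 7, on day 14, and for the arrays labelled MRL day 3 minus B6 day 0, with filled points past an adjusted p of 0.05. On day 7 all but 1 point lie above 0, on day 14 they lie nearer to it, and in the right panel the filled points below 0, in the fit of all arrays, are all of the high glycine-tyrosine family.

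Krt84 and Krtap13 stood apart from the other members by strain. Krt84 read 9.24, 9.67 and 9.36 in MRL on day 7 and 9.87, 9.70 and 9.90 on day 14, all above the B6 arrays of every day. It was higher in MRL by 2.44 ± 0.46 on day 7 and by 1.91 ± 0.46 on day 14 (limma adjusted p = 0.00139 and 0.0137), the latter not called without B6 day 14 replicate 2 or 3 (adjusted p = 0.0581 and 0.0733). Krtap13 read 7.02, 6.45 and 6.95 in MRL on day 7, where the B6 arrays read 3.67, 3.25 and 3.55. It was higher in MRL by 3.31 ± 0.56 on day 7 and by 2.02 ± 0.56 on day 14 (limma adjusted p = 0.000555 and 0.0371), the latter not called without B6 day 14 replicate 2 or 3 or MRL day 14 replicate 1 or 3, or with only the compared arrays (adjusted p = 0.1002). Neither gene rose between day 7 and day 14 in MRL by the test (0.40 ± 0.46 and 0.27 ± 0.56). Whether the probes bind the RNA of both strains alike was not tested, and this holds for every difference between the strains.

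**Figure D5:**
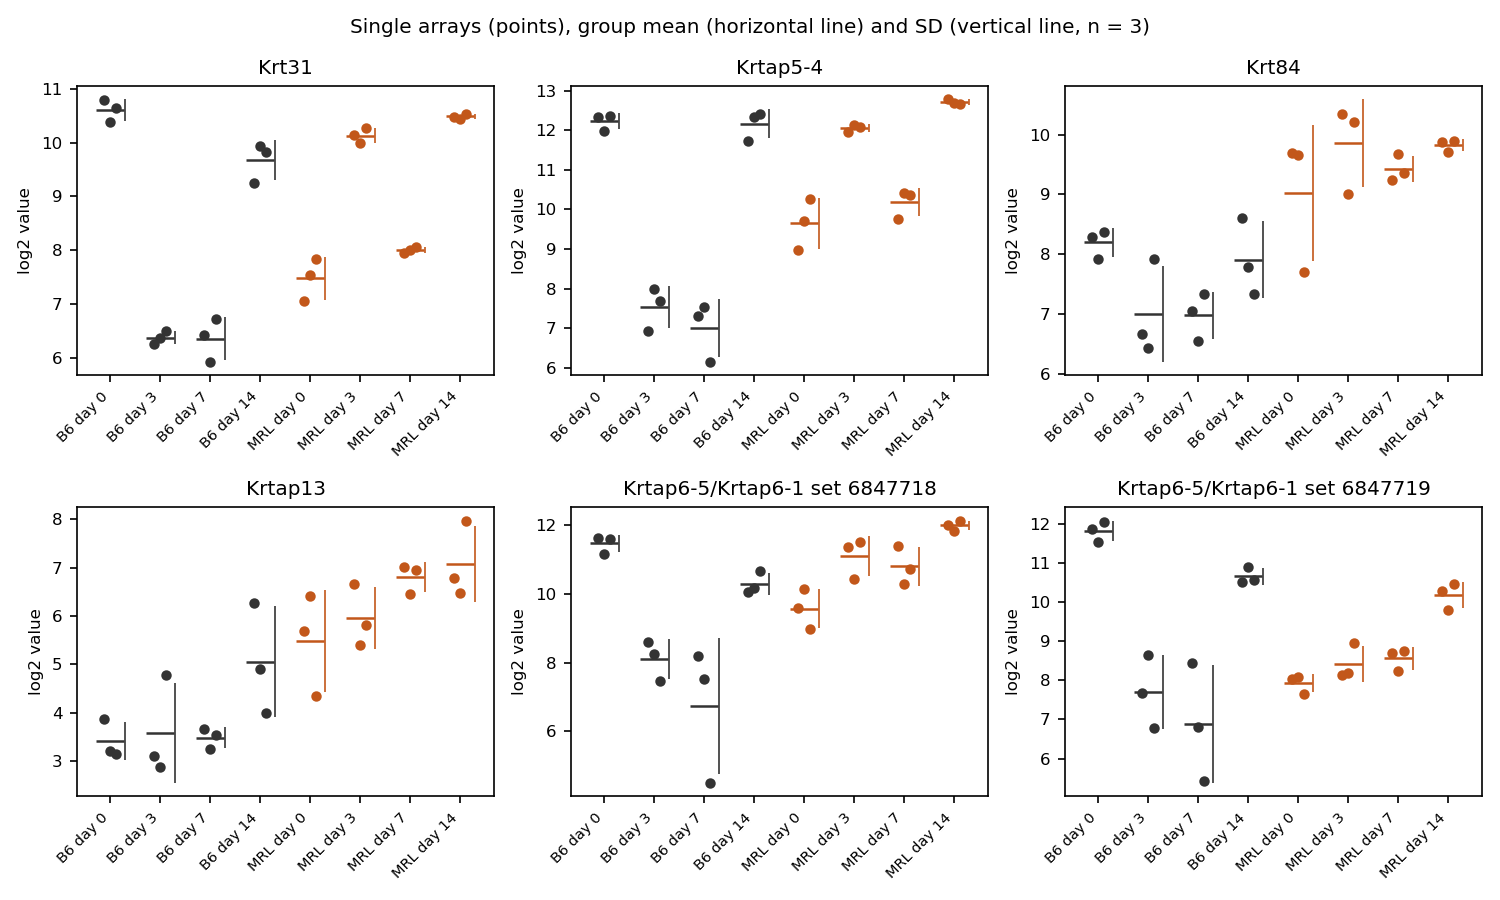
Single arrays (points) are drawn with the group mean (horizontal line) and the SD over 3 arrays (vertical line) as log2 values for Krt31, Krtap5-4, Krt84, Krtap13 and 2 probe sets that list Krtap6-5 and Krtap6-1. B6 is dark and MRL orange, and the MRL groups carry their labelled day. Krt31 and Krtap5-4 drop and rise again in B6, while Krt84 and Krtap13 read higher in MRL on days 7 and 14.

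Between the arrays labelled MRL day 3 and B6 day 0, the high glycine-tyrosine family held all 9 lower calls of the fit of all arrays. Several of these called probe sets list the same genes, Krtap6-5 and Krtap6-1, so the calls are not independent. Of the members 9 were called lower and 2 higher than B6 day 0, and the median difference was -0.24. Over all probe sets 30.3% were called in either direction and 18% higher, and 1963 of 15928 were called lower. The 11 member calls together were thus near the share over all probe sets, while the 9 lower calls were above theirs. The high glycine-tyrosine median was -1.32 over 12 probe sets. Of the 25 others 0 were lower and 2 were higher (Krt84 by 1.66 ± 0.46 and Krtap13 by 2.54 ± 0.56), and their median was -0.12. Krtap21-1 read 9.33, 9.22 and 9.91 in B6 day 0 and 7.72, 7.52 and 8.10 in the arrays labelled MRL day 3, without overlap, a difference of -1.70 ± 0.30 (SE, n = 3 a group, limma adjusted p = 0.000254). Krtap19-9b differed by -1.70 ± 0.45, Krtap6-2 by -1.54 ± 0.47 and Krtap16-3/Krtap16-3 by -2.08 ± 0.55. Krtap19-2 (-0.27 ± 0.63) and Krtap19-5 (-0.39 ± 0.52), of the same family, were not called. Krtap5-4 (-0.18 ± 0.32) was not called. Krt31, outside the family, differed by -0.47 ± 0.19 and was not called, but was called lower with cyclic loess (-0.61), quantile normalization (-0.65), the filter at a mean of 6 (-0.47), array weights (-0.48) and only the compared arrays (-0.47), with limma adjusted p of 0.0221, 0.0164, 0.0497, 0.0221 and 0.0224. The count of 11 fell to 6 without B6 day 0 replicate 3 or MRL day 3 replicate 2, the array with the lowest value of its group in 26 of 37 members. Without MRL day 3 replicate 2 the calls for Krtap19-9b (-1.23), Krtap6-2 (-1.11) and Krtap16-3/Krtap16-3 (-1.41) were lost, without B6 day 0 replicate 3 those for Krtap6-2 (-1.36) and set 6842998 of Krtap6-5/Krtap6-1 (-0.98), and without MRL day 3 replicate 1 that for Krt84 (1.41). Of the high-sulfur KAPs on the same chromosome 16 as that family, Krtap13 was called higher. Krtap13-1, Krtap14, Krtap26-1 and Krtap15/4930553J12Rik were not called. Among the other lists, 2 of 8 leukocyte genes (S100a8 and S100a9), 3 of 4 proliferation genes and Krt16 were called higher in the arrays labelled MRL day 3. Of the leukocyte and proliferation genes 0 were lower. Of the 8 regulators 4 were lower and 0 higher, of the 8 genes of hair-forming cells 1 was lower, and the 6 inner root sheath keratins gave 0 calls.

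Probe sets that list the same 2 genes did not read alike between the strains. Set 6847718 and set 6847719 both list Krtap6-5 and Krtap6-1. Set 6847718 read 11.64, 11.17 and 11.60 in B6 day 0 and 11.35, 10.43 and 11.52 in the arrays labelled MRL day 3, with overlap. Set 6847719 read 11.86, 11.52 and 12.05 in B6 day 0 and 8.13, 8.18 and 8.95 in the arrays labelled MRL day 3, far apart. The differences were -0.37 ± 0.60 and -3.39 ± 0.49 (limma adjusted p = 0.679 and 4e-05). On day 7, MRL minus B6 was 4.06 ± 0.60 for set 6847718 and 1.67 ± 0.49 for set 6847719, the latter not called without B6 day 7 replicate 2 or 3 or any 1 MRL day 7 array (0.94 to 1.84). With array weights the latter was 0.88 and not called (adjusted p = 0.190), nor was it with only the compared arrays (adjusted p = 0.156). On day 14 it was 1.69 ± 0.60 and -0.48 ± 0.49, neither called. The former was called with array weights (1.64, adjusted p = 0.0443) and with only the compared arrays (adjusted p = 0.00104). The remaining set with these genes in the same order, 6842998, gave -1.20 ± 0.32, 2.64 ± 0.32 and 1.75 ± 0.32 for the same comparisons. Within B6 these 3 sets differed by -3.36, -4.11 and -3.53 between day 3 and day 0, in the order 6847718, 6847719 and 6842998. Krtap6-1/Krtap6-5 lists the same genes in the other order. Its means were 10.76 in B6 day 0, 6.61 in B6 day 3 and 9.43 in the arrays labelled MRL day 3. In B6 and MRL they were 6.47 and 9.17 on day 7, and 8.99 and 10.53 on day 14.

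The arrays labelled MRL day 0 stood above B6 day 3 in part of the members. Of the members 21 were called higher and 0 lower, where 10.9% of all probe sets were called in either direction and 6.87% higher, and the median was 1.10. All 5 type I and all 5 ultra-high-sulfur probe sets were higher, with medians of 1.10 and 1.68. Of the type II keratins 3 of 5 were called, of the high-sulfur KAPs 5 of 9, and of the high glycine-tyrosine sets 2 of 12, with medians of 1.06, 1.07 and 0.59. Krtap4-7 read 5.44, 5.54 and 5.29 in B6 day 3 and 7.42, 8.03 and 8.23 in the arrays labelled MRL day 0, a difference of 2.47 ± 0.32 (limma adjusted p = 2.58e-05). Krtap5-4 differed by 2.12 ± 0.32.

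Taken by their labels, the MRL groups gave the reverse of B6. From the label day 0 to the label day 3, 30 members were called higher and 0 lower, where 20.5% of all probe sets were called in either direction, 13.4% higher and 7.15% lower. Of the members 34 were lower and 1 higher in the arrays labelled MRL day 0 than in B6 day 0, where 40% were called, 22.1% lower and 17.9% higher. Further, 34 were higher and 0 lower in those labelled MRL day 3 than in B6 day 3, where 40.6% were called. Compared with the label day 0, 5 members were higher on day 7 and 33 on day 14, with 0 lower, where 17.3% and 17.7% were called. Of all 15928 probe sets 1709 were higher on day 7 and 1667 on day 14, and 7.23% were lower on day 14. The 5 members of day 7 were near the share over all probe sets, and are not a result about the members. The 5 became 1 without MRL day 0 replicate 1, 8 without MRL day 0 replicate 2, and 3 without MRL day 7 replicate 2 or 3. Compared with the label day 3, 19 members were lower on day 7 and 0 higher, where 23.1% were called, 9.68% higher, and 0 of these 19 were of the high glycine-tyrosine family. On day 14, 12 members were higher than under the label day 3 and 0 lower, where 13.1% were called, 5.59% higher, and 10 of these 12 were of the high glycine-tyrosine family. The 12 became 6 without MRL day 3 replicate 1 or 2 or MRL day 14 replicate 1.

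The members varied more between replicates than other probe sets did. Their median SD over 3 arrays ran from 0.16 in MRL day 14, where the median over all probe sets was 0.16 too, to 0.61 in B6 day 7. The members moved together between replicates: B6 day 0 replicate 2 was the lowest of its group in 33 of 37 members, B6 day 14 replicate 1 in 29, the array labelled MRL day 0 replicate 1 in 28 and B6 day 7 replicate 3 in 27. In B6 day 3, MRL day 7 and MRL day 14 no array was the lowest in more than 21 members.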

How the data were processed

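RNA of 24 samples of mouse digits was measured on Affymetrix arrays. The authors summarised the arrays with RMA in Affymetrix Expression Console, with mm8 as the genome build, per the submitters' processing notes. The deposited intensity values are linear, from 3.99 to 12789, and the sources used here do not give the step that made them linear. Medians of the arrays were 7.14 to 7.50 in log2 of the deposited intensity. No floor was added before log2.

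Of 16661 probe sets, the 15928 with at least 1 symbol in the platform's annotation were fitted together by limma 3.58.1 under R 4.3.3 (lmFit, then eBayes, with 1 mean for each of 8 groups, 16 residual and 4.62 prior degrees of freedom). The 19 comparisons were contrasts of these means, with two-sided p-values adjusted by Benjamini-Hochberg within each and a threshold of 0.05. The fit was tested on simulated data. Replicates are biological per the labels, which give no batch. Gene identifiers matched RefSeq GRCm38.p6 for 36 of 37 members, and KAP families were taken from the gene names. In the other lists each gene is its probe set with the highest mean.

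Members given by single arrays were, among the probe sets with 1 gene, the 4 largest and the 4 smallest differences of B6 day 3 minus day 0, MRL minus B6 on day 7 and B6 day 14 minus day 7, and the member with the highest mean of each family. Values of set 6847718, set 6847719, Krt32, Krt34, Krtap14, Krtap21-1 and a few others that the text singles out were chosen after they were seen. The members and the lists of follicle and cell type genes were chosen with earlier results of these data known. Alternatives were other scaling, an offset of 16, a filter at a mean log2 of 6, 1-symbol probe sets, array weights, a replicate block, a fit of the compared arrays and leaving out each array.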

Additional observations from a re-analysis of the deposited data

Results flagged for a closer look

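The change of the members differed between the strains in 2 contrasts, each by a test of the difference itself in the limma fit. From day 7 to day 14, 3 members were called, all with the smaller rise in MRL. MRL rise minus B6 rise was -1.24 for Krt35, -1.67 for Krtap26-1 and -2.63 for Krtap5-4, and for each the MRL level was already higher on day 7. Both statements use the same day 7 arrays, so the second is not separate support for the first.

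From day 0 to day 3, taken by the labels, 35 members were called, all with the higher change in MRL, where 45.2% of all probe sets were called and 28.8% had the higher change in MRL. The difference was 4.08 for Krtap31-1, 5.15 for Krt39, 5.54 for Krtap1-5, 6.65 for Krtap4-2, 6.94 for Krtap4-7, 5.91 for Krtap4-13, 6.87 for Krt31, 6.83 for Krt35, 2.02 for Krt84 and 5.99 for Krt82. It was 6.26 for Krtap13-1, 6.64 for Krtap26-1, 6.16 for Krtap19-2, 5.51 for Krtap19-5, 4.15 for Krtap19-4, 5.94 for Krtap6-2, 7.11 for Krtap5-4 and 6.40 for Krtap5-2. All of these rest on the arrays labelled MRL day 0 and MRL day 3, which go against their labels.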

How the results depend on the processing

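The counts of members called in B6 on day 3 and day 7 against day 0, in the rise from day 7 to day 14 in both strains, and in MRL minus B6 on day 7 kept within 1.5 times of their main value under every alternative run, with 33 to 36 in B6 day 7 minus day 0, 34 to 35 in B6 day 3 minus day 0, 27 to 30 in MRL day 14 minus day 7 and 30 to 33 in MRL minus B6 on day 7 when 1 array was left out. Other counts moved. With array weights there were 5 calls in B6 day 7 minus day 3 (main 3), 17 in MRL day 7 minus the label day 0 (5), 19 in MRL day 14 minus the label day 3 (12), 23 in MRL minus B6 on day 14 (10) and 9 in the strain difference of the day 7 to day 14 change (3). With only the compared arrays these were 8, 19, 21 and 0, apart from B6 day 7 minus day 3. With the filter at a mean of 6 there were 9 in MRL day 7 minus the label day 0 and 5 in the strain difference of the change. With an offset of 16 there were 16 in MRL minus B6 on day 14. With 1-symbol probe sets, which hold only 25 members, there were 6 in MRL minus B6 on day 14 and 7 in the label MRL day 3 minus B6 day 0. Leaving out 1 array gave 0 to 7 in B6 day 7 minus day 3 (1, of the opposite direction, without B6 day 7 replicate 3), 1 to 8 in MRL day 7 minus the label day 0, 6 to 13 in MRL day 14 minus the label day 3, 5 to 9 in MRL minus B6 on day 14, 6 to 12 in the label MRL day 3 minus B6 day 0 and 1 to 6 in the strain difference of the change. Replicate numbers were not taken as pairs: of 84 correlations of residuals at a shared number, 10 were above 0.1, and 1 of 28 group pairs had all 3 above it. With the number as a replicate block the counts were 35, 36, 8, 3, 33 and 31 for B6 day 3, 7 and 14 minus day 0, B6 day 7 minus day 3, B6 day 14 minus day 7 and MRL day 14 minus day 7, and 33 and 10 for MRL minus B6 on days 7 and 14. The block ended the calls of Krtap4-13 in MRL minus B6 on day 7 (adjusted p = 0.0610) and Krt34 in B6 day 14 minus day 0 (0.0539) and added Krtap19-4 in the former (0.0459). Of 1591 alternatives for 107 single differences, 1473 kept direction and call, 103 lost the call, 10 gained it and 5 changed sign, all 5 for differences that were not called: Krtap13 in B6 day 3 minus day 0 (-0.24 with array weights, -0.42 without B6 day 3 replicate 3, and 0.53 at the highest when 1 array was left out), and, in the label MRL day 3 minus B6 day 0, Krtap19-2 (0.0058 without B6 day 0 replicate 3, 0.083 without MRL day 3 replicate 2, and -0.75 at the lowest) and Krtap19-5 (0.019 without MRL day 3 replicate 2, and -0.76 at the lowest). The cause of these shifts was not tested. No detection flags were used, so how far low values exceed background is unknown.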
